A study of Mus musculus with 6 samples.

Results

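The genes described here are 43 of the 27179 genes counted in mouse skin, chosen by name as parts of the contractile apparatus of mature skeletal muscle and of its calcium and energy supply. All 43 were found in the count table by NCBI gene number. They comprised 10 thick-filament genes, 8 thin-filament genes, 12 genes of titin, the Z-disc, the M-band and the fibre junctions, 8 genes of calcium release, uptake and buffering, and 5 genes of energy supply. By the fibre type in which each isoform is known to predominate, 14 were assigned to fast fibres, 8 to slow fibres, and 21 were not assigned to a fibre type.

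The RNA came from skin of female BALB/c mice aged 6 to 8 weeks. There were 4 groups and 6 libraries. The control group had 1 library, bleomycin had 1, bleomycin with EHP-101 had 1, and bleomycin with ajulemic acid had 3. Bleomycin is a cytotoxic antibiotic used to induce skin fibrosis in mice, EHP-101 is an oral formulation of a cannabidiol-derived aminoquinone, and ajulemic acid is a synthetic cannabinoid acid. Doses and times were not in the labels used here, nor whether the ajulemic acid libraries came from separate mice, so p-values measure only the spread among those 3 libraries.

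Mouse skin carries a thin sheet of striated muscle, the panniculus carnosus, beneath the fat layer, and full-thickness skin contains its RNA. In a striated fibre, myosin heads on thick filaments pull on actin thin filaments, and calcium binding to troponin C releases the block that troponin I and troponin T hold on actin. Most of these proteins exist as fast and slow isoforms encoded by separate genes, and the myosin heavy chain used by a fibre (Myh4 for type IIb, Myh1 for IIx, Myh2 for IIa and Myh7 for slow type I) is the usual mark of its type.

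Total counts ran from 14291592 to 19837682 per library, and all 43 genes had counts in every library. The muscle genes took 1.08% of all counts in control, 3.12% with bleomycin, 3.28% with bleomycin and EHP-101, and 2.17, 2.77 and 1.35% in ajulemic acid replicates 1, 2 and 3. Mitochondrial ribosomal RNA took 17.3 to 26.5% of counts, and without it the muscle share was 1.47% in control, 3.88% with bleomycin, 4.0% with EHP-101 and 2.62, 3.75 and 1.65% with ajulemic acid. As a check of the label, markers of other muscle were read. Levels are given in CPM, that is counts scaled by library size. Over 10 heart genes the summed level was 24.2 CPM in control, 36.0 with bleomycin, 51.4 with EHP-101 and 28.5, 28.8 and 34.0 with ajulemic acid. Both atrial genes, Myl7 and Nppa, were under 1 CPM in all 6 libraries. Myh6, the cardiac heavy chain, was at 6.04 CPM in control and 0.834 to 2.2 in the others, and per length its control level (0.994 RPKM, CPM divided by gene length in kilobases) lay above that of Myh7 (0.456) and Tnnc1 (0.841) and below that of Tnnt1 (1.48). Tnnt2, cardiac troponin T, was at 3.55 CPM in control, 15 with bleomycin, 24.2 with EHP-101 and 11.7, 9.51 and 18.5 with ajulemic acid, and Sln, the calcium-pump regulator sarcolipin, at 1.58, 7.25, 12.6, 4.57, 3.44 and 6.28 CPM in the same order. Both were lowest in control, as most members were, and the part of heart-gene expression in the muscle result was not tested. Over 9 smooth-muscle markers the summed level was 333 to 461 CPM, lowest in the bleomycin library. In bulk skin, fewer muscle fibres and less RNA per fibre cannot be told apart.

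The balance of the myosin heavy chain genes differed between libraries, and the sequences upstream of 3 of them are shown because these genes lie in 1 cluster and differ in level. In mm10, the count table placed Myh2 at chr11:67171027-67197517, Myh1 at chr11:67200114-67224575 and Myh4 at chr11:67238029-67260446, all on the plus strand. The 250 bases before the RefSeq start (GRCm38.p6) follow, read 5′ to 3′ on the gene's strand, for Myh4 (chr11:67237562-67237811, plus), Myh1 (chr11:67199852-67200101, plus) and Myh2 (chr11:67170777-67171026, plus). Capitals mark the E-box (CANNTG, bound by myogenic factors such as MyoD), the MEF2 box and the CArG box (bound by serum response factor), each searched on both strands, and no marked motif overlapped another.
Myh4: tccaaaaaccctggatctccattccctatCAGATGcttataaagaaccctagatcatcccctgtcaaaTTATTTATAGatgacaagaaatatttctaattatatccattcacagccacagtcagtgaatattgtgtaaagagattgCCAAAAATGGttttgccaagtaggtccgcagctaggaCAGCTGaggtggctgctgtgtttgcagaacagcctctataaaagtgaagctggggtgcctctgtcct
Myh1: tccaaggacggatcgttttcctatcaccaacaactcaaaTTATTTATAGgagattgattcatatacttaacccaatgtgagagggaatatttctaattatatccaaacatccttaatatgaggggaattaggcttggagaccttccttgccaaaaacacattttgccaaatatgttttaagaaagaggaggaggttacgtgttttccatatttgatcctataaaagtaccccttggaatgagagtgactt
Myh2: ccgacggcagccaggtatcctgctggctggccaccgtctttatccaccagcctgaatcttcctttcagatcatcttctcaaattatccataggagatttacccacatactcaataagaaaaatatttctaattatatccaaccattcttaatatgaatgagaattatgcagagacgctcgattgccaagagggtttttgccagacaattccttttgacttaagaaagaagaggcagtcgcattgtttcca
The Myh4 sequence held 2 E-boxes, 1 MEF2 box and 1 CArG box, the Myh1 sequence held 1 MEF2 box, and the Myh2 sequence held none of these. The longest run common to all 3 was aatatttctaattatatcca, 20 bases starting 163 bases before the start in Myh4, 165 in Myh1 and 130 in Myh2.

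Skeletal alpha-actin, Acta1, was the member with the highest level per length in every library (297 to 905 RPKM), and Tnnc1, the slow and cardiac troponin C, is the member with the largest fitted difference between bleomycin and control. Their upstream sequences, Acta1 at chr8:123894776-123895025 (minus) and Tnnc1 at chr14:31208062-31208311 (plus), are given in the same way.
Acta1: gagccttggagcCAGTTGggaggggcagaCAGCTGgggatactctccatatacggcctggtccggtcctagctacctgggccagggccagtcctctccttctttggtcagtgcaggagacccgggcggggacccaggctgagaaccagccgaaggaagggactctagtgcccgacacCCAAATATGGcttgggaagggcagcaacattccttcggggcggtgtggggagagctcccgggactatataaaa
Tnnc1: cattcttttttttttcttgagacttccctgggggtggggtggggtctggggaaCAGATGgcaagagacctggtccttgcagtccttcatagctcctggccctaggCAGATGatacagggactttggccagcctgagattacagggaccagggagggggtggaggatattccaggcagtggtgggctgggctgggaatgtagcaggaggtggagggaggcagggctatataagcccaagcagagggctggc
Acta1 held a CArG box from 73 to 64 bases before the start and 2 E-boxes, and Tnnc1 held 2 E-boxes. Of the 43 genes, 33 were in the RefSeq promoter table, whose windows run from 250 bases before to 50 after the start. An E-box was found in 29 of the 33 (87.9%), against 75.0% of the 27025 genes of the table. A CArG box was found in 5 (15.2%, against 1.8% of all) and a MEF2 box in 7 (21.2%, against 3.7% of all). These are letter matches, not sites of binding.

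The first comparison asked how the muscle genes differed between bleomycin-treated and control skin. The bleomycin library had more RNA of nearly every member: the summed level of the 43 genes was 11167 CPM in control and 31074 CPM with bleomycin. Of the 42 genes that passed the filter on low counts (all but Myl3, a slow light chain at 0.128 to 0.401 CPM), 41 had a higher level with bleomycin, against 49.5% of all 17377 genes tested, and the median log2 fold change was 1.65 against -0.01 for all genes. No member passed edgeR's quasi-likelihood test at an adjusted p of 0.05, with 0% of all genes called, because no gene passed. At an unadjusted p under 0.05, 28 of the 42 were higher and 0 lower, against 4.70% of all genes higher. DESeq2 called 14 of the 42 higher, against 0.737% of all genes. Each group is 1 library here, with no replicate check, and both tools took the spread from the 3 ajulemic acid libraries. Leaving out ajulemic acid replicate 3 brought edgeR's count from 0 to 14 (0.814% of all genes). Leaving out replicate 1 or 2 left it at 0 (0% and 0.0347% of all genes higher).

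**Figure D1:**
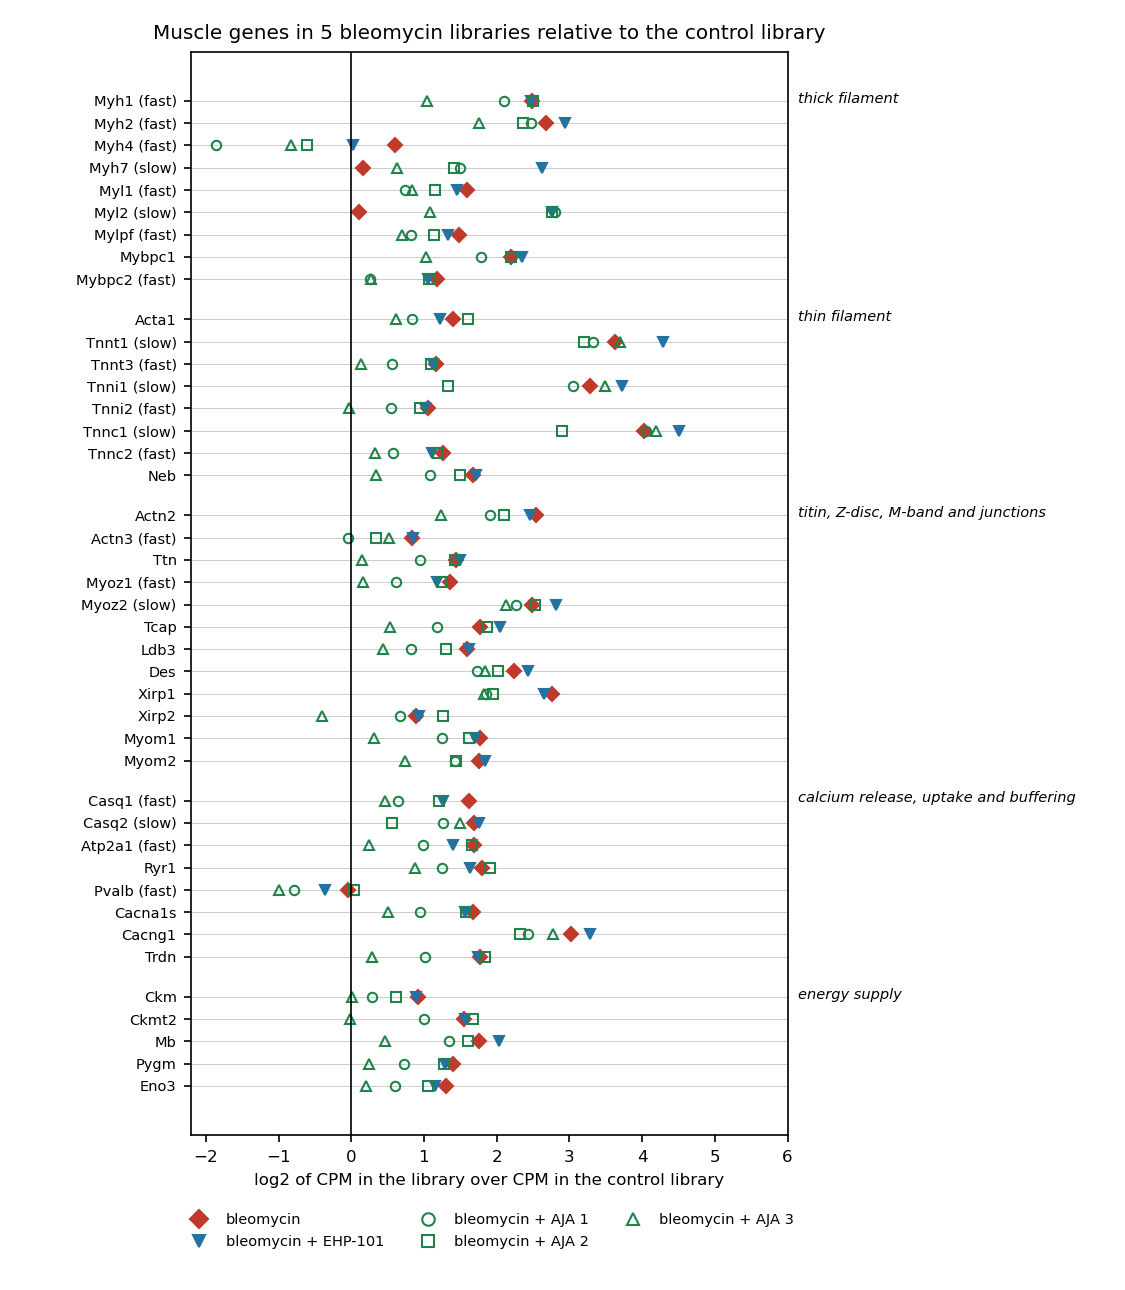
The level of each member in the 5 bleomycin libraries relative to control (log2 ratio of CPM), 1 row for each of the 42 tested genes, grouped by role (AJA is ajulemic acid). Most genes were above control in all 5 bleomycin libraries, with Myh4 and Pvalb among the exceptions.

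Thick-filament genes differed in size by isoform. Myh1, the type IIx heavy chain, was at 323 CPM in control, 1805 with bleomycin, 1794 with EHP-101 and 1381, 1819 and 663 in ajulemic acid replicates 1 to 3. Myh2, the type IIa chain, was at 61.8 CPM in control, 394 with bleomycin, 474 with EHP-101 and 342, 317 and 208 with ajulemic acid. For both genes the control library was the lowest of the 6. The log2 fold change of bleomycin over control was 2.48 (SE 0.74) for Myh1 and 2.67 (SE 0.42) for Myh2, with adjusted p of 0.682 and 0.434 by edgeR's quasi-likelihood test with Benjamini-Hochberg adjustment; DESeq2 called both.

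Myh4, the type IIb heavy chain, was at 707 CPM in control, 1077 with bleomycin and 720 with EHP-101, while the ajulemic acid replicates 1 to 3 had 195, 463 and 397. Its control level lay above all 3 ajulemic acid libraries, which no other tested member did (1 of 42, against 22.2% of all genes). The fitted log2 difference between bleomycin and control was 0.61 (SE 0.62; adjusted p = 0.834, edgeR). Myh7, the slow type I chain, was at 2.76 CPM in control, 3.08 with bleomycin, 17 with EHP-101 and 7.77, 7.33 and 4.29 with ajulemic acid. Exact 95% Poisson intervals, which cover counting error only, were 1.99 to 3.73 CPM in control, 2.27 to 4.08 with bleomycin and 15.1 to 19.1 with EHP-101, so control and bleomycin overlapped and EHP-101 stood above both.

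Per kilobase, Myh4 made up 64.7% of the 4 heavy chains' RNA in control, 32.9% with bleomycin, 24.0% with EHP-101 and 10.1, 17.8 and 31.3% with ajulemic acid. Myh1 made up 29.5% in control, 55.1% with bleomycin, 59.8% with EHP-101 and 71.8, 69.9 and 52.2% with ajulemic acid. Control was the only library with more Myh4 than Myh1: the ratio of Myh4 to Myh1 was 2.19 in control, 0.597 with bleomycin, 0.402 with EHP-101 and 0.141, 0.255 and 0.600 with ajulemic acid. Myh2 had a share of 5.59% in control and 11.9 to 17.6% in the 5 bleomycin libraries, and Myh7 had at most 0.564%. The heavy chains share parts of their sequence. Of 50-base words in their GENCODE M21 transcripts, another gene's transcripts held 25.4% for Myh1, 22.9% for Myh2, 18.9% for Myh4 and 15.6% for Myh7. For Myh7, 1381 of the 1382 shared words occurred in Myh6, which is outside these 4. Myh1, Myh2 and Myh4 shared words mainly with each other and with Myh8. The sources used here do not say how the authors' counting assigned such reads, which leaves the shares uncertain to that extent.

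**Figure D2:**
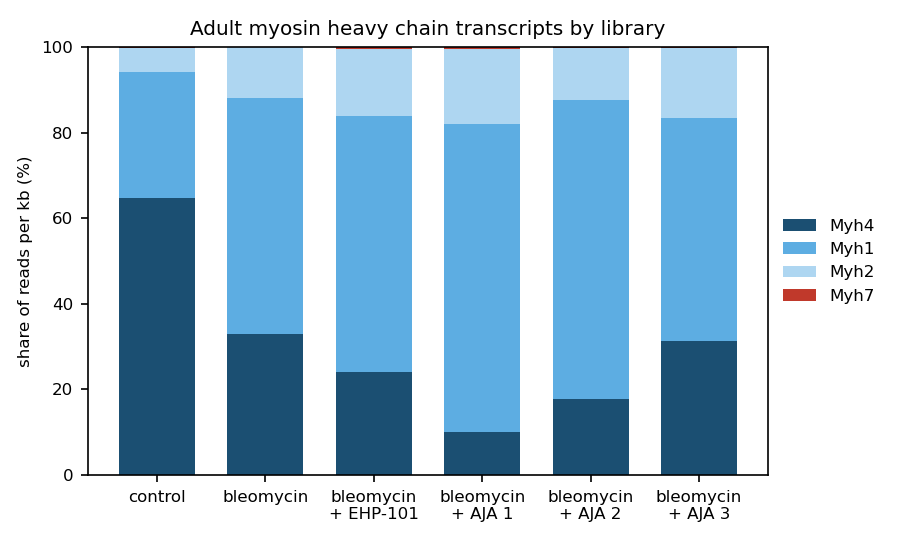
Share of Myh1, Myh2, Myh4 and Myh7 in the summed level per kilobase of these 4 heavy chains (percent), 1 bar per library. Myh4 is the larger part in control (64.7%) and Myh1 in each of the 5 bleomycin libraries (52.2 to 71.8%).

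The fast light chains Myl1 and Mylpf, which stabilise the myosin neck, were lowest in control (95.4 and 119 CPM) and highest with bleomycin (286 and 331 CPM). Their log2 fold changes of bleomycin over control were 1.59 (SE 0.28) and 1.48 (SE 0.29). The slow and cardiac light chain Myl2 was at 0.657 CPM in control, 0.705 with bleomycin, 4.45 with EHP-101 and 4.57, 4.47 and 1.40 with ajulemic acid. Like Myh7, it did not separate bleomycin from control, and both were lower in these libraries than in the other 4. The myosin-binding proteins Mybpc1 (slow form, expressed in both fibre types) and Mybpc2 (fast form) were at 70.4 and 95.2 CPM in control and at 324 and 216 CPM with bleomycin.

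Thin-filament genes differed in size by fibre type. Tnnt1, slow troponin T, was at 1.38 CPM in control (95% interval 0.854 to 2.11), 17.1 with bleomycin (15.1 to 19.2), 27.0 with EHP-101 (24.5 to 29.6) and 13.8, 12.7 and 17.9 with ajulemic acid. Tnnc1 was at 0.591 CPM in control (0.270 to 1.12), 9.62 with bleomycin (8.14 to 11.3), 13.4 with EHP-101 (11.7 to 15.3) and 9.81, 4.41 and 10.8 with ajulemic acid. Tnni1, slow troponin I, was at 2.1 CPM in control, 20.5 with bleomycin, 27.7 with EHP-101 and 17.4, 5.27 and 23.6 with ajulemic acid. For all 3 slow troponins the control library was the lowest of the 6, and ajulemic acid replicate 2 was the lowest of the bleomycin libraries. The log2 fold changes of bleomycin over control were 3.62 for Tnnt1 (SE 0.40), 4.01 for Tnnc1 (SE 0.84) and 3.28 for Tnni1 (SE 1.14), with adjusted p of 0.434, 0.532 and 0.729 by edgeR, and DESeq2 called each.

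The fast troponins were present at far higher levels and differed less. Tnnt3 was at 174 CPM in control and 389 with bleomycin, Tnni2 at 128 and 265, and Tnnc2 at 129 and 311. Their log2 fold changes were 1.16 (SE 0.49), 1.05 (SE 0.49) and 1.27 (SE 0.46). Per kilobase, Tnnt1 came to 0.954% of Tnnt3 in control, 5.27% with bleomycin, 8.58% with EHP-101 and 6.45, 4.10 and 11.3% with ajulemic acid. Slow forms together made up 0.783% of troponin RNA per kilobase in control, 4.05% with bleomycin, 6.06% with EHP-101 and 5.33, 2.13 and 8.63% with ajulemic acid. All 5 bleomycin libraries thus had a larger slow share than control, and the fast forms made up the larger part in all 6 libraries. Acta1 was at 425 CPM in control, 1127 with bleomycin, 992 with EHP-101 and 756, 1297 and 651 with ajulemic acid, and Neb, the thin-filament ruler nebulin, at 683, 2173, 2233, 1441, 1927 and 863 CPM in the same order.

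**Figure D3:**
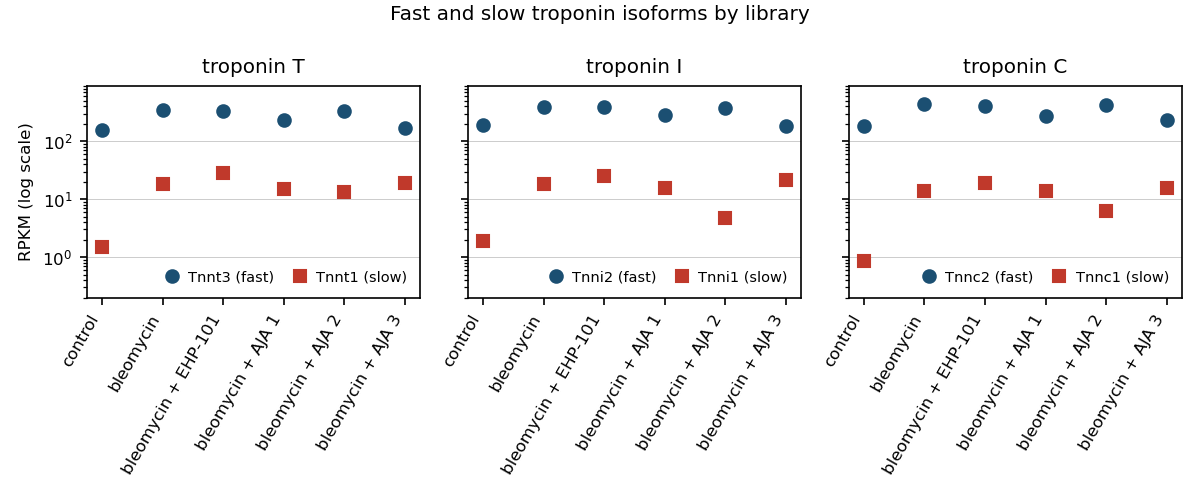
Level of the slow and fast troponin genes in each library (RPKM, log axis), with the fast and the slow form of each subunit side by side. The slow forms are lowest in control, and the fast forms lie well above the slow forms in all 6 libraries.

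Among the 7 slow genes that passed the filter, 7 were higher with bleomycin than in control and the median log2 fold change was 2.49. Among the 14 fast genes, 13 were higher with a median of 1.31, and among the 21 genes not assigned to a fibre type all were higher with a median of 1.76. The difference between fast and slow genes was not tested. The paired slow and fast forms outside the troponins were less uniform. The Z-disc protein Myoz2 came to 12.8% of its fast counterpart Myoz1 per kilobase in control, 27.9% with bleomycin and 30.9 to 49.8% in the other libraries. Casq2, the cardiac and slow calcium-storage protein, came to 15.8% of Casq1 in control and 16.6% with bleomycin, and ranged from 10.1 to 32.4% over the ajulemic acid libraries, below and above control. Myl2 came to 0.659% of Mylpf in control and 0.254% with bleomycin, and Myl3 to 0.426% of Myl1 in control and 0.0554% with bleomycin, both from 11 or fewer counts of the slow gene per library in these 2 libraries. The share of Myh7 among the heavy chains was likewise smaller with bleomycin (0.0935%) than in control (0.251%).

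Genes of titin, the Z-disc, the M-band and the junctions were all higher with bleomycin (12 of 12, median log2 fold change 1.76). Ttn, the giant protein that spans the sarcomere from Z-disc to M-band, gave 53.5 to 58.6% of all counts of the 43 genes, from 104320 exonic bases. It was at 6427 CPM in control, 17516 with bleomycin, 18115 with EHP-101 and 12369, 17260 and 7127 with ajulemic acid. Bleomycin against control gave a log2 ratio of 1.45 (SE 0.66; adjusted p = 0.769, edgeR). Xirp1, an actin-binding protein of the intercalated disc and myotendinous junction that is known from regenerating and remodelling fibres, was at 7.16 CPM in control, 48.5 with bleomycin, 45.0 with EHP-101 and 25.9, 27.6 and 25.3 with ajulemic acid. All 3 ajulemic acid libraries (26.3 ± 1.21 CPM, SD, n = 3) lay between control and the other bleomycin libraries, and the 95% counting intervals of bleomycin (45.1 to 52.1 CPM) and EHP-101 (41.8 to 48.4 CPM) overlapped.

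Xirp1 had the smallest p of all members for bleomycin against control (log2 fold change 2.76, SE 0.23, adjusted p = 0.354 by edgeR). Des, the intermediate filament desmin that ties Z-discs together, was at 77.3 CPM in control, 366 with bleomycin, 417 with EHP-101 and 257, 314 and 276 with ajulemic acid. Bleomycin against control gave a log2 ratio of 2.25 (SE 0.25; adjusted p = 0.434, edgeR). Relative to Acta1 per kilobase, Des was at 12.1% in control and 16.1 to 28.3% in the 5 bleomycin libraries. The alpha-actinins, which cross-link actin at the Z-disc, also differed from each other: Actn2 was at 30.9 CPM in control and 179 with bleomycin, while the fast-fibre form Actn3 was at 55.4 and 99.3 CPM. Actn3 was at 53.7 CPM in ajulemic acid replicate 1, below control.

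Calcium-handling genes were higher with bleomycin in 7 of 8 cases (median log2 fold change 1.69). Cacng1, the gamma subunit of the voltage sensor in the T-tubule, was at 1.77 CPM in control, 14.4 with bleomycin, 17.3 with EHP-101 and 9.54, 8.88 and 12.2 with ajulemic acid. Bleomycin against control gave a log2 ratio of 3.02 (SE 0.38; adjusted p = 0.434, edgeR). The fast calcium pump Atp2a1 was at 375 CPM in control, 1214 with bleomycin, 986 with EHP-101 and 745, 1181 and 446 with ajulemic acid. Ryr1, the release channel of the sarcoplasmic reticulum, was at 107 CPM in control and 371 with bleomycin. Pvalb, the calcium buffer of the fastest fibres, was the exception at 84.6 CPM in control, 81.7 with bleomycin, 65.6 with EHP-101 and 49.0, 87.3 and 42.5 with ajulemic acid. Its log2 difference of -0.05 (SE 0.54) between bleomycin and control was 0.0003 when libraries were scaled by total counts.

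Energy-supply genes were all higher with bleomycin (5 of 5, median log2 fold change 1.39). Ckm, the cytosolic creatine kinase that regenerates ATP, was at 195 CPM in control, 369 with bleomycin, 363 with EHP-101 and 238, 298 and 197 with ajulemic acid. Mb, the oxygen store myoglobin, was at 41.4 CPM in control, 140.2 with bleomycin, 169 with EHP-101 and 105, 126 and 56.9 with ajulemic acid. Both genes were lowest in control and lowest among the bleomycin libraries in ajulemic acid replicate 3. For Ckm, replicate 3 (197 CPM) lay within the 95% counting interval of control (188 to 202 CPM). In the mitochondrial creatine kinase Ckmt2, ajulemic acid replicate 3 (21.0 CPM) lay just below control (21.3 CPM).

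**Figure D4:**
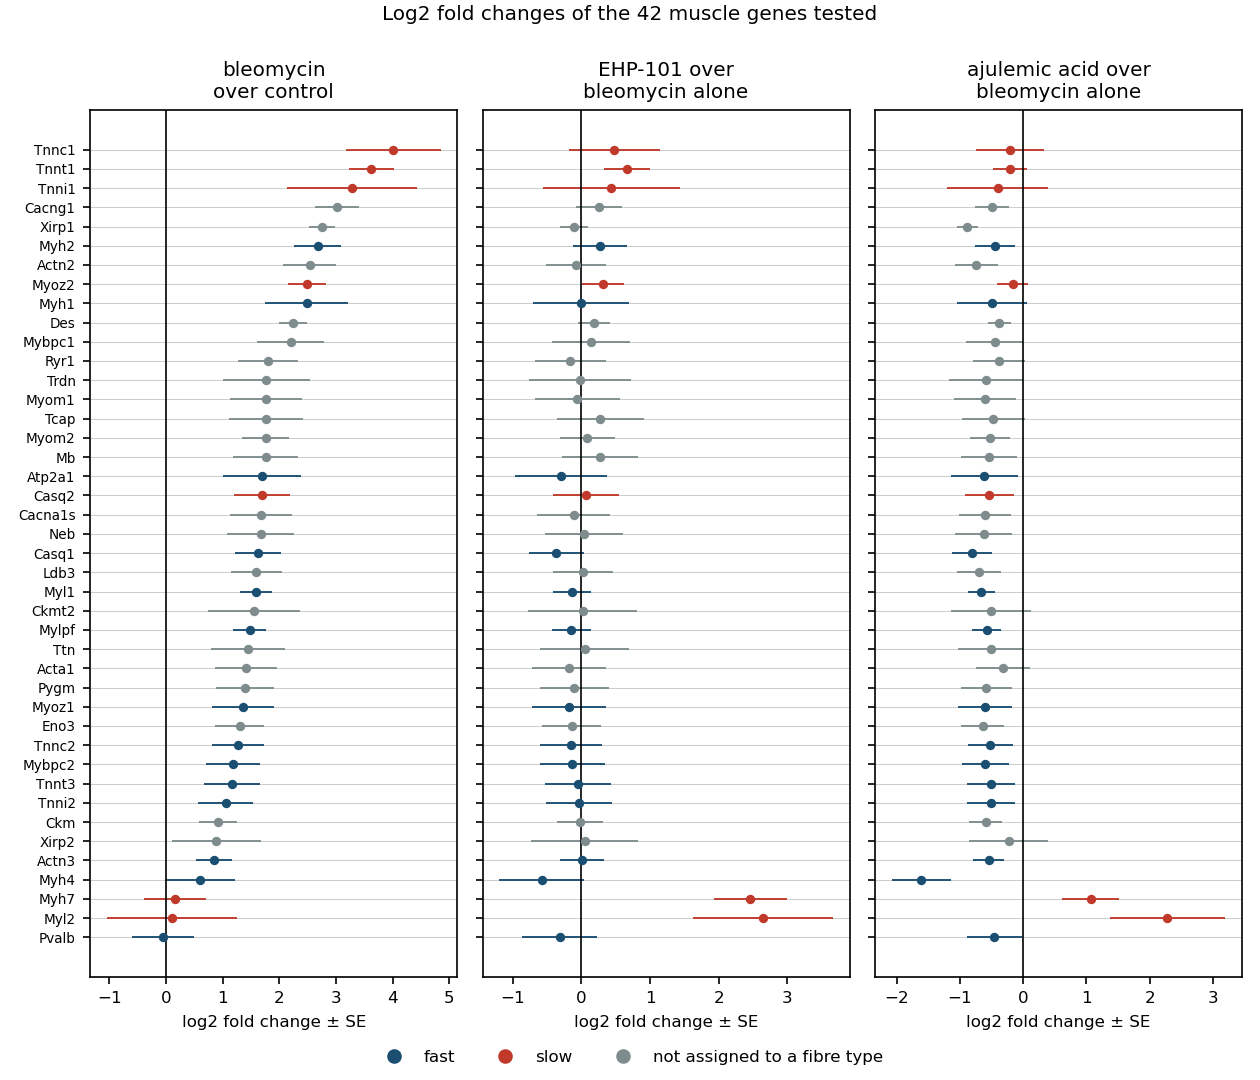
Fitted log2 fold change and standard error of each tested member for bleomycin against control, EHP-101 against bleomycin and ajulemic acid against bleomycin, with fast, slow and unassigned genes in different colours. Slow genes reach the largest values in the first comparison (up to 4.01), but slow Myl2 (0.10) and Myh7 (0.16) are among the smallest there. Myh7 and Myl2 stand apart above 1 in the others.

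Over all 6 libraries, the control level lay below all 5 bleomycin libraries in 36 of the 42 tested members, against 22.0% of all genes. The exceptions were Actn3, Myh4, Tnni2, Ckmt2, Pvalb and Xirp2, of which 4 are fast genes. No member had its control level above all 5, as 17.9% of all genes did. These orders take no account of counting error, as for Ckm above.

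The second comparison set EHP-101 with bleomycin against bleomycin alone, 1 library each, and the muscle genes were at nearly the same level in both. Of 42 members 20 were higher and 22 lower, against 50.0% of all genes higher, with a median log2 difference of -0.02 against 0.00 for all genes. Scaling by total counts gave 27 higher. Of the 14 fast genes 2 were higher (median -0.14), and of the 7 slow genes 7 were higher (median 0.48), with Myh7 and Myl2 the farthest: their log2 differences were 2.46 (SE 0.53, unadjusted p = 0.00615) and 2.64 (SE 1.02). The adjusted p was 0.9998 for both by edgeR, and neither edgeR nor DESeq2 called any member (0% of all genes called higher by edgeR and 0.0115% by DESeq2). At an unadjusted p under 0.05, 1 member (Myh7) was higher, against 0.575% of all genes, and 0 lower. The difference in Myh4 was -0.58 (SE 0.62) and in Acta1 -0.18 (SE 0.54). With 1 library a group, even the difference in Myh7 (2.46, SE 0.53) was not called. Differences much larger than these standard errors could thus go undetected, and similar levels do not show that the groups are equal.

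The third comparison set the 3 ajulemic acid libraries against the bleomycin library. Of 42 members 40 were lower with ajulemic acid, against 47.2% of all genes, and the median log2 difference was -0.52 against 0.02 for all genes. The bleomycin level lay above all 3 ajulemic acid libraries in 27 of the 42, against 24.6% of all genes. This was so in 12 of 14 fast genes, 14 of 21 genes not assigned to a fibre type and 1 of 7 slow genes (Casq2). It lay below all 3 in Myh7 and Myl2, 2 of 42 against 22.9% of all genes. No member passed edgeR (0% of all genes called) or DESeq2 (0.570% of all genes called lower) in this comparison. With 1 library against 3, an exact two-sided permutation test of a single gene cannot go below p = 0.25.

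At an unadjusted p under 0.05, 3 members were lower with ajulemic acid: Xirp1, Myh4 and Myl1, against 3.21% of all genes. Xirp1 differed by -0.88 on the log2 scale (SE 0.16, adjusted p = 0.411 by edgeR). Myh4 differed by -1.61 (SE 0.47, adjusted p = 0.998), and its 3 libraries spread from 195 to 463 CPM (352 ± 140.0, SD, n = 3). Myl1 was at 286 CPM with bleomycin and 159.9, 212 and 170 with ajulemic acid, giving a log2 difference of -0.66 (SE 0.21). All 3 were lower in each ajulemic acid library than in the bleomycin library, as held for 27 of the 42 members (24.6% of all genes). The 3 were picked by p in this same comparison, so their order adds no support.

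The ajulemic acid libraries spread widely. Their summed muscle level was 21091, 29586 and 13311 CPM (21329 ± 8140, SD, n = 3), so that replicate 2 was near the bleomycin library (31074 CPM) and replicate 3 near control (11167 CPM). Replicate 2 was the highest of the 3 in 34 of the 43 genes and replicate 3 the lowest in 33. The slow genes summed to 84.5, 61.0 and 91.3 CPM with ajulemic acid against 18.1 in control and 90.4 with bleomycin, and among the 3 replicate 2 was the lowest in 4 of 8 slow genes and replicate 3 in the other 4. Without replicate 2 the median log2 difference of all members from bleomycin was -0.79, and without replicate 3 it was -0.35. For slow genes it was -0.20 with all 3, 0.02 without replicate 2 and -0.37 without replicate 3.

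Markers of other cells also differed between these libraries. Over 10 hair-shaft genes, the summed level was 3015 CPM in control, 137 with bleomycin, 1647 with EHP-101 and 2224, 157 and 4841 with ajulemic acid, highest in ajulemic acid replicate 3, where most muscle genes were lowest of the 3. All 10 were lower with bleomycin than in control. Over 8 white-adipocyte genes it was 2116, 859, 1446, 1062, 1112 and 795 CPM, and all 8 were lower with bleomycin than in control. Over 10 Schwann-cell genes it was 188, 393, 252, 172, 237 and 168 CPM, all 10 higher with bleomycin than in control and lower with ajulemic acid than with bleomycin. Over 10 hepatocyte genes it was 892 CPM in control, 613 with bleomycin and 558 with EHP-101, against 14.9, 18.2 and 13.5 with ajulemic acid, so the ajulemic acid libraries stood apart from the other 3. Over 6 brown-adipocyte genes it was 281, 132, 111, 134, 211 and 128 CPM, of which Ucp1 gave 95.1 CPM in control, 17.1 in ajulemic acid replicate 2 and under 0.3 in the other 4. The part of these markers in the muscle result was not tested.

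Ajulemic acid libraries were also compared with control, which shares its control library with the first comparison. Of 42 members 40 were higher (54.9% of all genes), with a median log2 difference of 1.08 (0.71 without ajulemic acid replicate 2). For fast genes the median was 0.75, and 0.38 without replicate 2. The control level lay below all 3 in 36 (26.9% of all genes), including 7 of 7 slow genes. Myh4 was lower by 1.01 on the log2 scale (SE 0.48, adjusted p = 0.843, edgeR). The smallest adjusted p were 0.0800 for Xirp1 (log2 difference 1.87, SE 0.20), 0.0812 for Tnnt1 (3.42, SE 0.37) and 0.0940 for Des (1.87, SE 0.22) by edgeR, which called 0 members (0% of all genes higher, 0.0345% lower). Of the 42, 17 were higher at an unadjusted p under 0.05 (3.02% of all genes) and 0 lower. DESeq2 called 11 of the 42 higher, against 0.564% of all genes. Without ajulemic acid replicate 1 edgeR called 0 (0% of all genes), without replicate 2 it called 7 (0.260%), and without replicate 3 it called 13 (0.791%).

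EHP-101 against control gave 41 of 42 members higher (50.1% of all genes), with a median log2 difference of 1.63 for all members and 2.81 for slow genes. Again edgeR called 0 (0% of all genes), with an unadjusted p under 0.05 for 28 higher members (2.92% of all genes) and 0 lower ones, and DESeq2 called 14 (0.535% of all genes). Without ajulemic acid replicate 3, edgeR called 13 (0.416% of all genes). Without replicate 1 or 2 it called 0 (0% and 0.0404% of all genes higher). EHP-101 against ajulemic acid, the comparison of the 2 treated groups, gave 42 of 42 higher with EHP-101 (45.5% of all genes), with a median of 0.55. Without ajulemic acid replicate 3, 38 of 42 were higher and the median was 0.34. The EHP-101 level lay above all 3 ajulemic acid libraries in 29 members (18.3% of all genes). The log2 difference was 0.78 for Xirp1 (SE 0.16, adjusted p = 0.812, edgeR), 1.40 for Myh7 (SE 0.38) and 0.86 for Tnnt1 (SE 0.26). In that comparison 0 members passed edgeR or DESeq2 (0% and 0.363% of all genes higher), while 5 had an unadjusted p under 0.05 in the higher direction (1.97% of all genes) and 0 in the lower. Doses were not in the labels used here, so the 2 agents are not compared at a matched dose.

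Of 39 other genes of mature muscle, among them scaffolds, junctional membrane proteins and sarcoglycans, 37 were higher with bleomycin than in control (median log2 fold change 1.55, 29 higher at an unadjusted p under 0.05, 0 called by edgeR), against 49.5% of all genes higher and 4.70% higher at that p. They summed to 752 CPM in control, 2061 with bleomycin, 2030 with EHP-101 and 1461, 1926 and 1056 with ajulemic acid, lowest in control as the 43 genes were. Of 11 genes of regenerating and embryonic muscle, 11 were higher with bleomycin than in control (median log2 fold change 4.37, 11 at an unadjusted p under 0.05, 0 called by edgeR). Myh3, the embryonic heavy chain, was at 1.71 CPM in control, 104 with bleomycin, 156 with EHP-101 and 63.8, 25.8 and 59.4 with ajulemic acid. Myh8, the perinatal heavy chain, which shares 12.1% of its 50-base words with other genes, was at 4.53, 94.1, 114, 49.7, 28.2 and 73.6 CPM, and Myog, the myogenic differentiation factor, at 0.591, 11.9, 18.6, 9.34, 5.84 and 12.2 CPM in the same order. In Myh3, Myh8 and Myog, ajulemic acid replicate 2 was the lowest of the bleomycin libraries, as it was in the slow troponins, while in most members of the 43 it was the highest ajulemic acid library. Of 10 genes of the nerve-muscle synapse and denervation 9 were higher with bleomycin than in control (median 1.54), of 13 muscle transcription factors 11 (median 0.43) and of 9 atrophy genes 7 (median 0.11), against 49.5% of all genes and a median of -0.01.

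**Figure D5:**
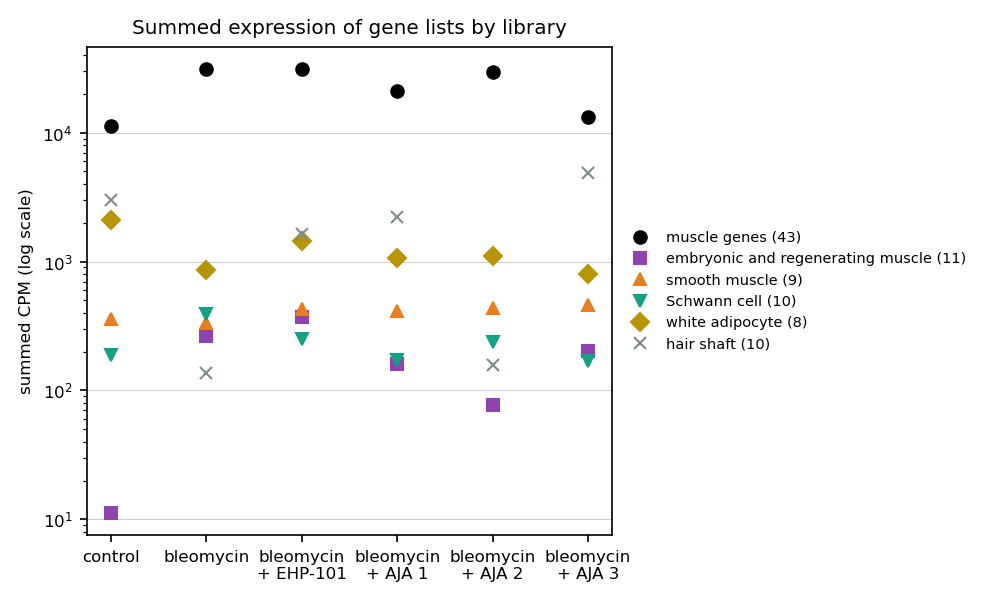
Summed level (CPM, log axis) of the 43 muscle genes and of 5 other gene lists in each of the 6 libraries (AJA is ajulemic acid). The 43 genes are highest with bleomycin (31074 CPM) and EHP-101 (31007 CPM), and hair-shaft genes are lowest with bleomycin (137 CPM), while embryonic and regenerating muscle genes are lowest in control (11.2 CPM).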

How the data were processed

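Total RNA of 6 skin libraries was sequenced as single-end reads of 50 bp from 300 ng of RNA per sample with a stranded kit that removes ribosomal RNA, per the labels' protocols. Trimmomatic 0.36, HISAT2 2.1.0, featureCounts 1.6.1, DESeq2 1.20.0 and mm10 are named in the submitters' processing notes. The authors deposited raw counts per gene (NCBI gene numbers) with exon coordinates and gene length, per the file headers. Whether strand was used, and how reads matching several places were handled, is not given in the sources used here. A merged table held the same counts for these libraries (0 values differed). That table has 6 further columns, of samples outside this set, which were left unused. Of 27179 gene numbers, 25275 had a symbol.

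Counts were tested with edgeR 4.0.16 (R 4.3.3) in 1 fit of all 6 libraries: filterByExpr with a minimum count of 10 (17377 genes), TMM scaling, robust quasi-likelihood F-tests (two-sided) and Benjamini-Hochberg adjustment over all genes at 0.05. The 2 residual degrees of freedom came from the ajulemic acid group, and the common biological coefficient of variation was 0.267. DESeq2 1.42.0 was the alternative tool, and the fits were checked on simulated data. CPM use TMM-scaled library sizes, RPKM divide them by the deposited gene length, and intervals are exact 95% Poisson limits. Alternatives were other scalings (size factors, total counts, libraries without mitochondrial ribosomal RNA), no filter, and leaving out each ajulemic acid library. The 43 genes and the gene lists were chosen with earlier results of these data known. Any of the 43 could be named. Full statistics went to the 5 of smallest p in each direction and to a fixed panel. Other lists were limited to 3 genes, apart from marker genes whose level is given.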

Additional observations from a re-analysis of the deposited data

How the results depend on the processing

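Counts of members called higher moved most. For bleomycin against control edgeR called 0, DESeq2 14, and leaving out 1 ajulemic acid library gave 0 to 14. For EHP-101 against control the values were 0, 14 and 0 to 13. For ajulemic acid against control they were 0, 11 and 0 to 13, and 5 with no filter on low counts (0.117% of all genes higher). Members higher with ajulemic acid than with bleomycin numbered 2, and 2 to 4 without 1 library. The slow genes' median for that comparison was -0.20 and ranged from -0.37 to 0.0188 without 1 library. Against control it was 2.38 (2.15 to 2.42), and for EHP-101 against ajulemic acid 0.68 (0.63 to 0.92). Log2 differences near 0 changed sign. Scaling by total counts gave 0.000286 for Pvalb (bleomycin against control) and, for EHP-101 against bleomycin, 0.0528 for Ckm, 0.0694 for Myh1, 0.0454 for Tnni2 and 0.0351 for Tnnt3. Over the settings without 1 ajulemic acid library, in that comparison, Ckm ranged from -0.0257 to 0.00689 and Myh1 from -0.00906 to 0.0235. Over the same settings Tnnc1 ranged from -0.441 to 0.113 and Tnni1 from -0.855 to 0.0188 (ajulemic acid against bleomycin), Myh4 from -0.0049 to 0.0277 (EHP-101 against control) and Acta1 from -0.0492 to 0.515 (EHP-101 against ajulemic acid). The cause was not tested. The median of all members for EHP-101 against bleomycin was -0.02, but 0.06 with total counts and 0.02 without ajulemic acid replicate 2. Members higher in that comparison numbered 20, and with these settings 27 and 23, so the larger part changed from lower to higher. Apart from these, the other median and count results kept their direction and stayed within the replicate spread or 1.5 times the main count. The replicate spread was the SD of the median over the 3 ajulemic acid libraries, 0.44 (log2) for all members. The same libraries were left out in turn, so it is a weak limit for those settings. Within it, the median of all members for ajulemic acid against bleomycin went from -0.52 to -0.79 without replicate 2. There was 1 library in 3 of the 4 groups and 2 residual degrees of freedom. Whether depth limits these tests was not tested. No paired analysis was possible with so few libraries, and the labels used here do not say whether libraries with the same replicate number belong together.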
